A study of Mus musculus with 12 samples.

Results

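The MS4A genes encode membrane proteins that cross the membrane in a tetraspan arrangement and are expressed mainly by blood and immune cells. Here 6 of them were followed in lung macrophages and monocytes: Ms4a4a, Ms4a4c, Ms4a6b, Ms4a6c, Ms4a6d and Ms4a7. They are the rows with these symbols among the 26608 gene rows of each deposited count file. All 6 were found, and all 6 passed the filter on low counts that left 14254 genes for testing. The members were selected on earlier results of these same libraries, and which values led to the choice is not recorded. Their fold changes and adjusted p-values therefore describe where they stand among all genes and are not independent evidence of a direction.

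Family members are known as partners of larger receptor assemblies and as regulators of signalling at the cell surface. Ms4a1 encodes the B cell antigen CD20, and Ms4a2 encodes the beta chain of the high-affinity IgE receptor of mast cells. In macrophages, the Ms4a4a protein is known to associate with the beta-glucan receptor dectin-1, encoded by Clec7a, and Ms4a7 is widely used as a marker of tissue macrophages.

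The series holds 12 libraries of RNA from sorted mouse lung cells of the strain C57Bl/6, about 250 cells in each. All animals had spent 3 weeks in hypoxia and received SU5416, which blocks VEGF receptors, once a week, an exposure used to produce pulmonary hypertension in rodents. The cells were interstitial macrophages (IM), which lie in the lung tissue outside the airspaces, or nonclassical monocytes (NCM), which crawl along the endothelium and are marked RM in the sample titles. They came from animals with floxed Hif1a and no Cre, called control here, or from animals in which Cx3cr1-driven Cre deletes Hif1a, called deleted. Hif1a is the gene of HIF-1alpha, the part of the HIF-1 complex that accumulates when oxygen is low, and Cx3cr1 is a fractalkine receptor gene active in many monocytes and macrophages. The 4 groups of 3 libraries were IM control (IM648, IM659 and IM660), IM deleted (IM649, IM650 and IM661), NCM control (NCM648, NCM657 and NCM659) and NCM deleted (NCM649, NCM650 and NCM661). No group lacked both hypoxia and SU5416, the age of the animals is not given, and no group carried Cre without floxed Hif1a, so an effect of Cre and an effect of the deletion cannot be told apart. Nothing in the labels states that the libraries of a group came from separate animals, so the p-values measure the spread between these libraries, which may be technical.

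The libraries held between 5332600 and 14099509 gene counts. Levels are given as CPM, gene counts scaled to a common library size. Hif1a itself was counted at 228 ± 15.6 CPM in IM control (SD, n = 3, as for every mean below) against 199 ± 6.50 in the IM deleted group. The NCM values were 225 ± 19.6 in controls against 172 ± 34.8 with the deletion, and neither genotype difference passed the test (edgeR's quasi-likelihood test, adjusted p = 0.938 and 0.407). Excision of some exons need not lower the count of a whole gene, so these counts do not measure the deletion. The summed level of 13 interstitial macrophage markers was 11000 to 17695 CPM in IM and 1087 to 3575 CPM in NCM libraries, and that of 12 nonclassical monocyte markers was 3946 to 15291 CPM in NCM and 1553 to 2481 CPM in IM libraries, so the markers separated the cell types as labelled. NCM661 stood apart within its group, with the lowest sum of nonclassical monocyte markers (3946 CPM) and the highest sum of 14 endothelial markers of all libraries (9546 CPM). Reads outside annotated exons were 42.0 ± 3.06% in IM control, while the means of the other groups were 65.2 ± 5.48% (IM deleted), 61.7 ± 4.54% (NCM control) and 66.6 ± 9.91% (NCM deleted).

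The members lie together on mouse chromosome 19 (GRCm38, GENCODE M21), within 283.8 kb of a 678.6 kb cluster of 19 Ms4a genes. From left to right they are Ms4a7 (chr19:11321039-11336146, minus strand), Ms4a4a (chr19:11375523-11392790, plus), Ms4a4c (chr19:11404770-11427246, plus), Ms4a6c (chr19:11469366-11482192, plus), Ms4a6b (chr19:11516512-11531256, plus) and Ms4a6d (chr19:11586604-11604849, minus). Neighbouring members were not expressed alike. Along the cluster, Ms4a4a and Ms4a6c stood high in both cell types, whereas Ms4a7 at one end and Ms4a6d at the other were high in IM and low in NCM.

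**Figure D1:**
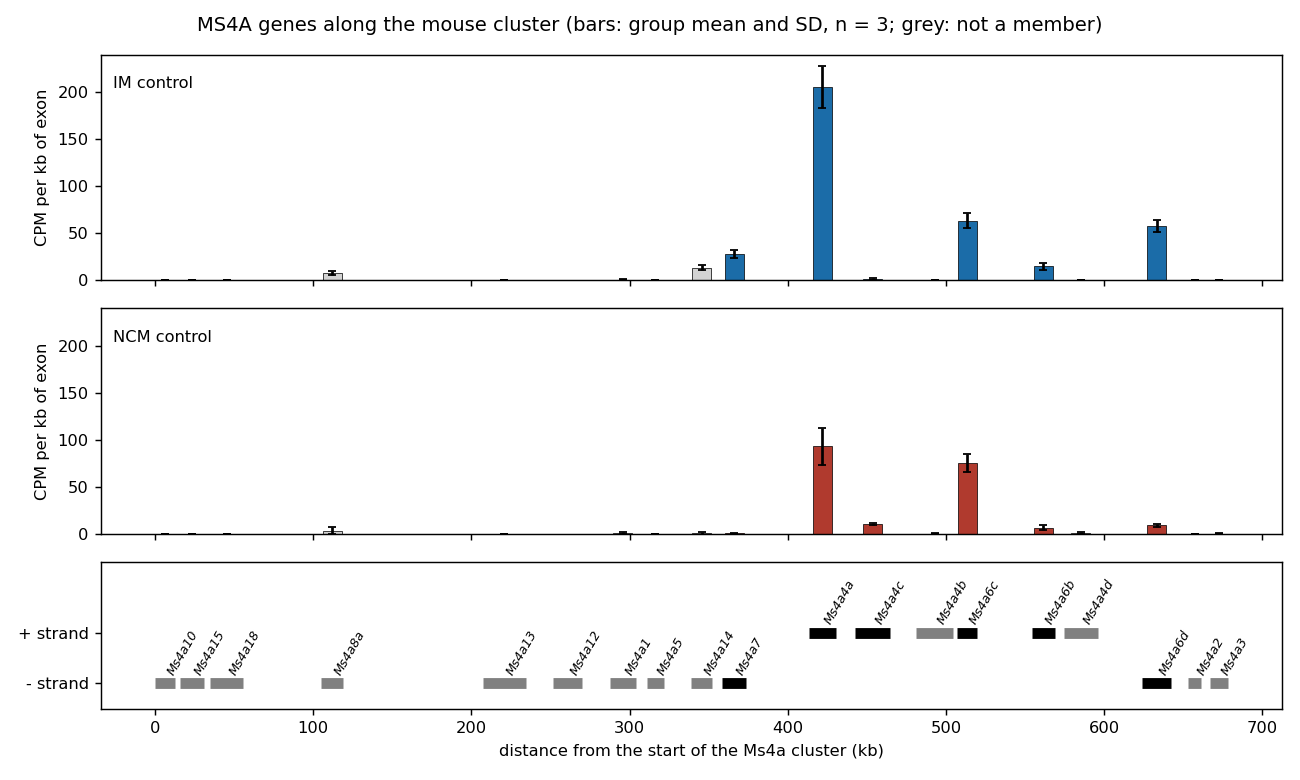
Mean level of each MS4A gene of the cluster in IM control and NCM control, in CPM per kb of annotated exon (error bars, SD of 3 libraries), above the position of the genes in kb from the left end of the cluster. Ms4a4a reached 206 CPM per kb in IM control and 93.5 in NCM control, whereas Ms4a7 was at 28.3 and 0.688.

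Ms4a6c and Ms4a6b are near relatives, and their promoters are shown because they share most of their sequence although the genes differ in level. The promoter of Ms4a7 is shown because this gene had the largest difference between the cell types among the members. Each sequence runs from 250 bases before to 50 bases after the RefSeq start (GRCm38.p6), on the strand of the gene, and capitals mark matches to 1 of 6 motifs searched on both strands.
Ms4a6c (chr19:11469118-11469417, plus strand): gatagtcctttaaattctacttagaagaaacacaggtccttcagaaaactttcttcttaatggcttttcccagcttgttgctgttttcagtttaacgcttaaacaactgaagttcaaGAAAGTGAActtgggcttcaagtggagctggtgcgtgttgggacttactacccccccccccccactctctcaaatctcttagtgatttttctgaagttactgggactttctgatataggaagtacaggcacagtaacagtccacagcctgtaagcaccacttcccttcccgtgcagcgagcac
Ms4a6b (chr19:11518309-11518608, plus strand): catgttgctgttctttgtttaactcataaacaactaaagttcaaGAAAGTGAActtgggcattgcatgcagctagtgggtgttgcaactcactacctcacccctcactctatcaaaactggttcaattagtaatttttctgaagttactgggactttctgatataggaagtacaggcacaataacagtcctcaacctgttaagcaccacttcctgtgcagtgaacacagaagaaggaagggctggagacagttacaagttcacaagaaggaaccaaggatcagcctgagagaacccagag
Ms4a7, first of 2 listed starts (chr19:11336097-11336396, minus strand): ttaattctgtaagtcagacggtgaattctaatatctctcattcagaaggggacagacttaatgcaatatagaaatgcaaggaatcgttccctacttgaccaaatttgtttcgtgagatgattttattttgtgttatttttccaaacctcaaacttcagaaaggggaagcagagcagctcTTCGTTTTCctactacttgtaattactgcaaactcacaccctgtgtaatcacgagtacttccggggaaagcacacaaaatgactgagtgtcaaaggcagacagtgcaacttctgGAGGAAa

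A local alignment matched 216 bases of the Ms4a6c and Ms4a6b promoters, of which 193 (89.35%) were identical. Within the shared part both hold the interferon response motif GAAANNGAA, at 133 bases before the start in Ms4a6c and 206 bases before it in Ms4a6b. Both listed promoters of Ms4a7 also hold this motif, on the opposite strand at 71 bases before the start in the first. It was thus found in 4 of the 6 promoters listed for 5 of the members, against 8.56% of 32851 mouse promoters of the same length. In the promoters of other Ms4a genes it was found in 1 of 13. The matches of Ms4a6c and Ms4a6b lie in their shared part and are not independent. Those of Ms4a7 lie in separate windows but belong to the same gene. Enrichment in the family was not tested, so none is shown. The motif GAGGAA of PU.1, a transcription factor of myeloid cells, was found in 2 of 6 (Ms4a4c and the first promoter of Ms4a7), against 28.28% of all promoters. Matches to ACGTG, a form of the hypoxia response element core (19.62% of all promoters), and to the C/EBP motif TTGCNNAA (10.8%) were in none of the 6. The same held for the MAF motif TGCTGAC (4.673%) and the NR4A motif AAAGGTCA (1.507%). The form GCGTG, which differs in its first base, was not searched and occurs in the Ms4a6c promoter printed above. The absence of ACGTG is therefore not an absence of the core. These are matches of letters in these windows and say nothing of binding.

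Levels were compared between genes as CPM per kb of annotated exon. The order and the shares below thus depend on the annotated lengths (836 bases for Ms4a4a, 4453 for Ms4a7 and 4485 for Ms4a6b). In plain CPM the order differed. Ms4a6c was at 155 CPM and Ms4a4a at 78.2 in NCM control, and Ms4a7 was at 126 CPM and Ms4a6d at 99.6 in IM control. In IM control, Ms4a4a was first with 206 ± 22.3 CPM per kb, above every other member in all 3 libraries. Ms4a6c (63.5 ± 7.91) and Ms4a6d (57.4 ± 6.39) came next with overlapping ranges, followed without overlap by Ms4a7 (28.3 ± 4.21), Ms4a6b (15.3 ± 3.73) and Ms4a4c (1.55 ± 1.03). In IM deleted, Ms4a4a (198 ± 26.8) again led in every library, the ranges of Ms4a6d (41.5 ± 2.35) and Ms4a6c (37.4 ± 7.42) overlapped, as did those of Ms4a6c and Ms4a7 (24.5 ± 6.09), and Ms4a6b (10.7 ± 2.43) and Ms4a4c (2.08 ± 1.08) followed without overlap.

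In NCM control, Ms4a4a (93.5 ± 19.6 CPM per kb) and Ms4a6c (75.6 ± 9.13) overlapped at the top. Ms4a4c (10.98 ± 0.840), Ms4a6d (9.27 ± 1.39) and Ms4a6b (6.96 ± 2.55) overlapped in turn well below them, and Ms4a7 was last at 0.688 ± 0.161. The same pair led in NCM deleted, with 69.9 ± 47.6 for Ms4a4a and 48.0 ± 26.5 for Ms4a6c, above the other members in all 3 libraries. As a share of the summed CPM per kb of the 6 members, Ms4a6d and Ms4a7 made up 15.5 ± 1.68% and 7.66 ± 1.56% in IM control, and 4.77 ± 0.962% and 0.351 ± 0.0747% in NCM control. Ms4a6c made up 17.1 ± 1.53% in IM control and 38.6 ± 3.52% in NCM control.

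**Figure D2:**
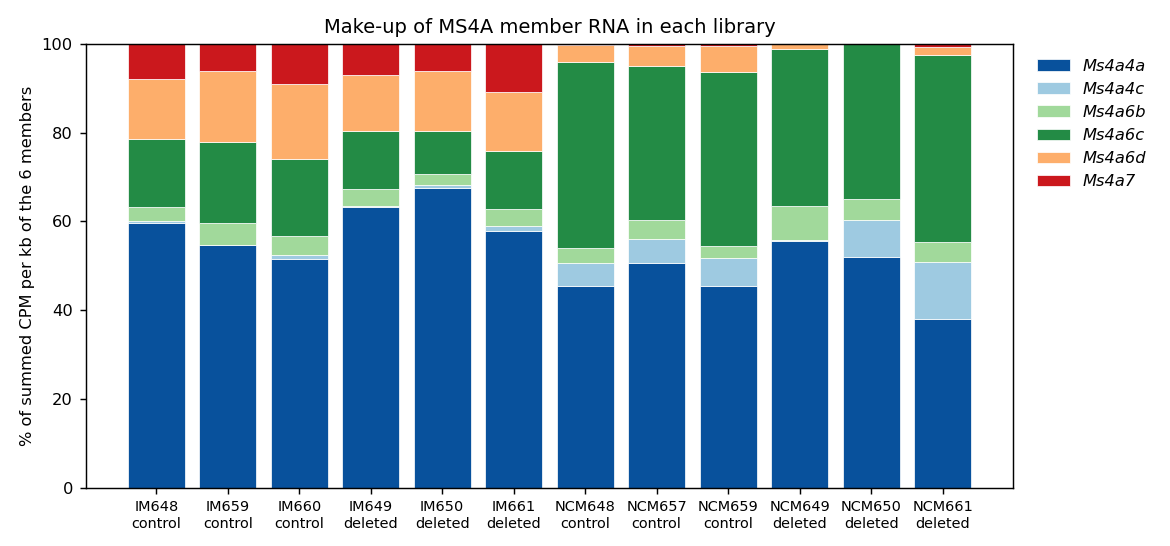
Share of each member in the summed CPM per kb of the 6 members, in percent, with 1 bar per library. Ms4a6c takes 38.6% on average in NCM control against 17.1% in IM control, and Ms4a7 takes 7.66% in IM control against 0.351% in NCM control.

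The first question was how the macrophages and monocytes differ in control animals. Ms4a7 and Ms4a6d were higher in IM control than in NCM control, and the other 4 members did not pass the test in edgeR (DESeq2 called 3 members, with Ms4a4c as the third). Thus 2 of 6 members passed upwards, beside 7.48% of all 14254 genes in either direction and 2.81% upwards. The median log2 fold change of the members was 1.13, beside 0.06 over all genes tested. These groups also differed in RNA make-up. The summed level of 5 nuclear RNAs was 8925 to 17577 CPM in IM control and 22161 to 40638 CPM in NCM control. Non-exonic reads averaged 42.0% and 61.7%. The part of these differences in the member values was not tested.

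Ms4a7, the macrophage marker, was counted at 131, 105 and 142 CPM in IM648, IM659 and IM660 and at 2.36, 3.79 and 3.03 CPM in NCM648, NCM657 and NCM659. Every IM library was far above every NCM library, and the NCM values rest on 16, 31 and 25 counts. The fitted difference was 5.35 ± 0.70 on the log2 scale (SE), a 40.8-fold higher level in IM (edgeR, adjusted p = 0.000438). Ms4a6d, a relative of Ms4a6b and Ms4a6c, was at 87.6, 110 and 102 CPM in IM control and at 13.4, 18.1 and 16.7 CPM in NCM control. Again the libraries did not overlap, and the fitted difference was 2.63 ± 0.57 (6.19-fold; edgeR, adjusted p = 0.00955). This call was lost without NCM648, where the adjusted p was 0.05 at a log2 difference of 2.52. It was lost too with the number in the sample title as a block (2.71, edgeR, adjusted p = 0.103). In that fit IM660 and NCM657, whose numbers occur in 1 cell type only, do not inform the difference. A call lost with this block in controls may thus reflect fewer libraries.

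Ms4a4a, the dectin-1 partner, was at 186, 180 and 151 CPM in IM control and at 75.4, 95.8 and 63.3 CPM in NCM control. The ranges did not overlap, but the difference of 1.14 ± 0.46 did not pass (edgeR, adjusted p = 0.165). It passed with only the 6 control libraries (edgeR, adjusted p = 0.00435) and without NCM661 (edgeR, adjusted p = 0.00514). Ms4a6b was at 51.7, 85.2 and 68.4 CPM in IM control and at 30.4, 43.1 and 20.3 CPM in NCM control, also without overlap and without passing (1.13 ± 0.55, edgeR, adjusted p = 0.270; 0.0427 with only the 6 control libraries). Ms4a4c was the member with the opposite order, at 2.77, 0.886 and 4.48 CPM in IM control and at 18.6, 20.9 and 18.2 CPM in NCM control. Its log2 difference was -2.82 ± 1.11 and did not pass (edgeR, adjusted p = 0.153). It passed with DESeq2 (adjusted p = 0.0321), with only the 6 control libraries (edgeR, adjusted p = 0.0209) and without NCM649 (edgeR, adjusted p = 0.0327). Ms4a6c overlapped, with 117, 148 and 125 CPM in IM control against 170, 161 and 134 CPM in NCM control (-0.25 ± 0.37, edgeR, adjusted p = 0.816). In all, 4 members were higher and 1 was lower in IM control without overlap, where 35.8% of all genes tested had no overlap in 1 direction or the other.

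**Figure D3:**
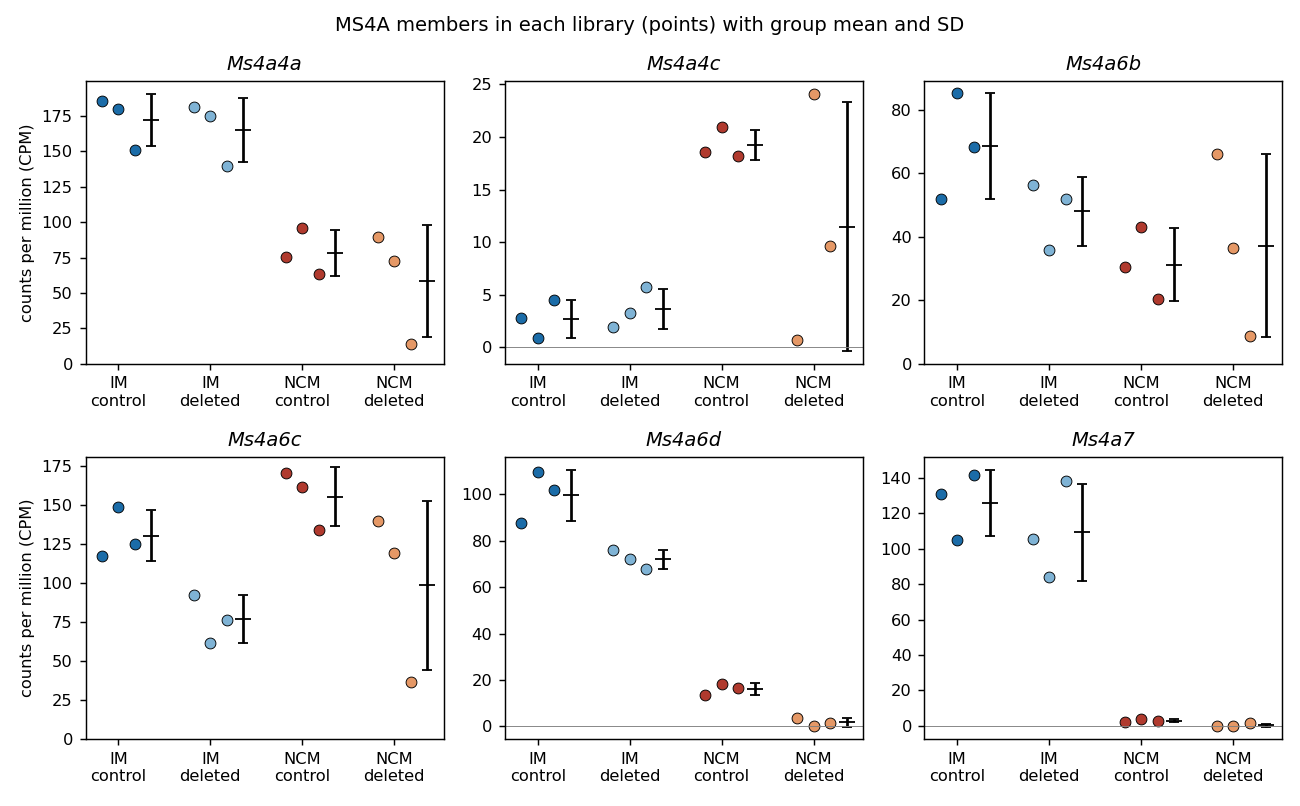
Level of each member in CPM, with 1 point per library and the group mean and SD beside the points, each panel on its own scale from 0. Ms4a6d and Ms4a7 are high in both IM groups and low in both NCM groups, whereas Ms4a4c is highest in NCM650 (24.1 CPM) and Ms4a6c is lowest in NCM661 (36.8 CPM).

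The same comparison in animals with deleted Hif1a uses none of the control libraries' levels but shares the estimate of spread. Ms4a7 and Ms4a6d were again higher in IM, so 2 of 6 members passed, beside 4.57% of all genes in either direction and 3.22% upwards. Ms4a7 was at 105, 84.2 and 138 CPM in IM649, IM650 and IM661, and it had no count in NCM649 and NCM650 and 16 counts (1.42 CPM) in NCM661. A count of 0 allows a level of up to 0.495 CPM in NCM649 and 0.441 CPM in NCM650 (3 counts, counting error only). The fitted log2 difference of 7.54 ± 0.81 (186-fold; edgeR, adjusted p = 7.03e-05) therefore rests on NCM661 for its size. Without that library no NCM deleted count was left.

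Ms4a6d was at 75.9, 72.2 and 67.8 CPM in IM deleted and at 3.79, 0.147 and 1.33 CPM in NCM deleted, the latter from 23, 1 and 15 counts. All 3 macrophage libraries were above all 3 monocyte libraries, and the difference was 5.38 ± 0.66 (41.7-fold; edgeR, adjusted p = 0.000222). The log2 difference was 4.85 without NCM650 and 6.44 without NCM649, and it passed in both cases. Ms4a4a was at 181, 175 and 140 CPM in IM deleted and at 89.3, 72.6 and 13.6 CPM in NCM deleted, with no overlap and a difference of 1.503 ± 0.46 that did not pass (edgeR, adjusted p = 0.0857; 0.0213 without NCM661). Ms4a4c, Ms4a6b and Ms4a6c overlapped between the cell types, with log2 differences of -1.66, 0.37 and -0.36. NCM661 was the lowest NCM deleted library for Ms4a4a, Ms4a6b and Ms4a6c, and for Ms4a4a the libraries NCM649 and NCM650 lay within the range of NCM control. The median of the members was 0.94, beside 0.14 over all genes, and 3 members had no overlap, where 22.2% of all genes had none.

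**Figure D4:**
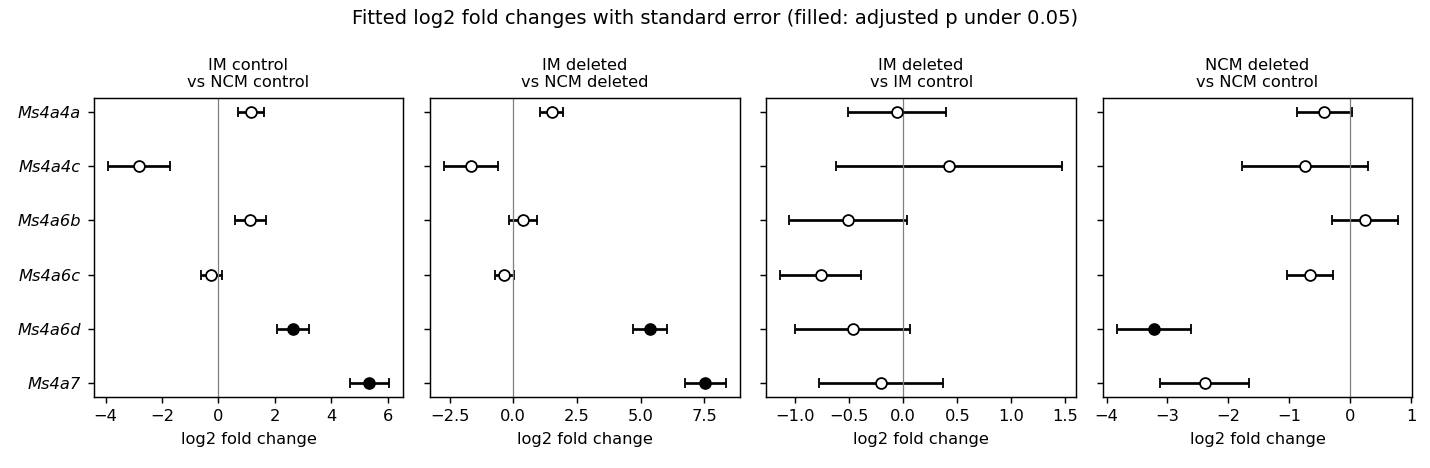
Fitted log2 fold change of each member with its standard error in the comparisons between cell types and between genotypes, with filled points where the adjusted p was under 0.05 and a separate scale in each panel. Ms4a6d and Ms4a7 pass in both comparisons of cell types, Ms4a6d passes in NCM deleted against NCM control (-3.22), and none passes in IM deleted against IM control.

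The effect of the genotype was examined next within each cell type. In interstitial macrophages, 0 of 6 members passed in edgeR, beside 0.288% of all genes. At an unadjusted p under 0.05 there were 1403 genes, none of them a member, and DESeq2 called 429 genes and no member. The median of the members was -0.34, beside 0.07 over all genes.

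Within IM, Ms4a6c was at 117, 148 and 125 CPM in control and at 92.1, 61.7 and 76.5 CPM in deleted libraries. Each deleted library was below each control library, with a log2 difference of -0.76 ± 0.37 that did not pass (edgeR, adjusted p = 0.546). Within lanes the log2 difference was -1.14 in lane 5 (1 deleted library against 2 controls) and -0.48 in lane 7 (2 against 1). Ms4a6d likewise did not overlap, with 87.6 to 110 CPM in control against 67.8 to 75.9 CPM in deleted libraries (-0.47 ± 0.53, edgeR, adjusted p = 0.953). For the other members the groups overlapped, with log2 differences of -0.06 for Ms4a4a, 0.42 for Ms4a4c, -0.51 for Ms4a6b and -0.21 for Ms4a7. No overlap was seen for 29.6% of all genes in this comparison. Beside these values, the summed level of 5 nuclear RNAs was 8925 to 17577 CPM in IM control and 40518 to 54969 CPM in IM deleted, and the part of this difference and of the share of non-exonic reads in the member values was not tested.

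In nonclassical monocytes, Ms4a6d fell and the other 5 members did not pass. This is 1 of 6 members, beside 0.421% of all genes in either direction and 0.337% downwards. Of the 60 genes past the threshold 48 were lower and 12 higher, while RLE scaling gave 31 lower and 28 higher, with Ms4a6d called under both. Ms4a6d was at 13.4, 18.1 and 16.7 CPM in NCM control and at 3.79, 0.147 and 1.33 CPM in NCM deleted. The NCM deleted libraries are the same that enter the comparison of cell types above. Every deleted library was below every control library, and the log2 difference was -3.22 ± 0.61 (9.32-fold lower; edgeR, adjusted p = 0.0377). Within lanes the log2 difference was -5.60 in lane 6, from NCM650 with its 1 count against 2 controls. In lane 8 it was -2.45, from 2 deleted libraries against 1 control. The call was lost in 10 of 18 alternatives, with the adjusted p reaching 0.551 when only the 6 NCM libraries were fitted. Leaving out any 1 of IM648, IM659, IM660, IM649, IM650, NCM648 or NCM657 ended it too (adjusted p from 0.0582 to 0.119), while the log2 difference stayed between -4.29 and -2.70 in all 18.

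Ms4a7 was at 2.36, 3.79 and 3.03 CPM in NCM control against 0, 0 and 1.42 CPM in NCM deleted. The libraries did not overlap, and the log2 difference of -2.39 ± 0.73 did not pass (edgeR, adjusted p = 0.124). It passed with DESeq2 (adjusted p = 0.0182) and without NCM661 (edgeR, adjusted p = 0.00226), when all NCM deleted libraries were at 0. Ms4a4c was spread most widely in NCM deleted, at 0.660, 24.1 and 9.67 CPM from 4, 164 and 109 counts, against 18.2 to 20.9 CPM in control. Its log2 difference was -0.74 ± 1.04 (edgeR, adjusted p = 0.777). Ms4a6c was at 139, 119 and 36.8 CPM in NCM deleted against 134 to 170 CPM in control (-0.66 ± 0.37, edgeR, adjusted p = 0.413). Ms4a4a differed by -0.42 and Ms4a6b by 0.25, both with overlap. The median of the members was -0.70, beside -0.10 over all genes, and 2 members had no overlap, where 17.3% of all genes had none.

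Other markers moved with the NCM comparison. The summed level of the 13 interstitial macrophage markers was 1812 to 3575 CPM in NCM control and 1087 to 1458 CPM in NCM deleted, and none of the 13 was at 0 in either group. The 14 endothelial markers summed to 800 to 2899 CPM in NCM control and to 4935, 4080 and 9546 CPM in NCM649, NCM650 and NCM661, with none at 0. The 12 nonclassical monocyte markers summed to 9390 to 15291 CPM in NCM control and 3946 to 7997 CPM in NCM deleted, and 6 classical monocyte markers to 85.3, 5804 and 2794 CPM in NCM648, NCM657 and NCM659 against 220 to 814 CPM in NCM deleted. Their part in the lower Ms4a6d and Ms4a7 was not tested. In pools of sorted cells, fewer cells that express a gene and less of its RNA per cell cannot be told apart.

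Whether the genotype difference itself differed between the cell types was tested as an interaction. In edgeR 0 of 6 members and 0% of all genes passed, with 1271 genes, 2 of them members, at an unadjusted p under 0.05. DESeq2 called 112 genes and no member. The largest values among the members were 2.75 ± 0.80 for Ms4a6d (edgeR, adjusted p = 0.376) and 2.19 ± 0.93 for Ms4a7 (edgeR, adjusted p = 0.522), on the log2 scale and with a positive sign where the difference in IM was the less negative. The fall of Ms4a6d in NCM is therefore not shown to differ from its course in IM. Ms4a7 passed this test without NCM661 (edgeR, adjusted p = 0.0132), when NCM deleted had no count of it.

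Summed over the 6 members, the level was 576, 629 and 592 CPM in IM control, 513, 432 and 480 CPM in IM deleted and 310, 343 and 256 CPM in NCM control. In NCM deleted it was 299 and 252 CPM in NCM649 and NCM650 and 71.5 CPM in NCM661. The sum was thus higher in every IM library than in every NCM library, and NCM661 was by itself at the bottom.

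Across the 12 libraries the members fell into patterns rather than moving as a block. Ms4a7 and Ms4a6d were the most alike pair (Pearson r of log2 CPM 0.918), and Ms4a4a and Ms4a6b followed (0.876). Ms4a6b and Ms4a6c had an r of 0.577, and Ms4a4a and Ms4a6c one of 0.438. Ms4a4c was negatively related to Ms4a6b (-0.596) and Ms4a4a (-0.483). These correlations describe 12 libraries that differ in cell type, depth and genotype at once, and the order of the pairs changed once the group means were removed. The deviations of Ms4a6d and Ms4a7 from their group means then had an r of 0.121. Those of Ms4a6b and Ms4a6c were the most alike (0.953), followed by Ms4a4a and Ms4a6c (0.933) and Ms4a4a and Ms4a6b (0.902). Ms4a4a and Ms4a7 went from 0.658 to -0.928. NCM661 was low for Ms4a4a, Ms4a6b and Ms4a6c and was the only NCM deleted library with Ms4a7 counts, and its part in these values was not tested.

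The genes most like each member were sought among 12264 tested genes by the same measure. Ms4a7 was closest to Aoah (r = 0.995), which encodes an enzyme that inactivates lipopolysaccharide, to the chemokine gene Cxcl16 (0.985) and to Gbgt1 (0.983). Ms4a6d was closest to Got1 (0.986), an aspartate aminotransferase, to Unc93b1 (0.969), which escorts nucleic acid sensing Toll-like receptors, and to the cytokine gene Il10 (0.963). Ms4a4a was closest to Cd84 (0.960), a receptor of the SLAM family, Cyfip1 (0.957) and Gpr65 (0.953), a proton-sensing receptor. Ms4a6b was closest to Fkbp5 (0.898), Cyfip1 (0.889) and the inhibitory lectin gene Clec12a (0.882). Ms4a6c was closest to Abhd12 (0.951), Sub1 (0.949) and Arpc1b (0.933), a subunit of the actin-branching Arp complex. Ms4a4c was closest to the transcription factor gene Bcl11a (0.955), Mst1r (0.954) and Pgam2 (0.941), all of them low in IM control. Mst1r and Pgam2 were low in every group, with their highest means in NCM control (3.93 and 5.73 CPM).

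Of the 16 other family genes listed, 14 are in the files and 6 passed the low-count filter. In IM control against NCM control 3 of the 6 were higher, beside 2.81% of all genes: Ms4a14, Tmem176a and Tmem176b. In IM deleted against NCM deleted only Ms4a14 of the 6 passed, beside 3.22% of all genes upwards. Between genotypes or in the interaction 0 of 6 passed in edgeR. At an unadjusted p under 0.05 there were 0 in IM, 1 in NCM and 2 in the interaction, beside 1403, 2301 and 1271 of all 14254 genes. DESeq2 called 0, 1 and 1, Tmem176a in both cases. The B cell gene Ms4a1 was at 0 to 12.7 CPM, and Ms4a4b, known from T cells, at 0 to 6.97 CPM. Ms4a8a was at 10.1 to 18.5 CPM in IM control and lower on average elsewhere, with overlap in every comparison. Ms4a10, Ms4a13 and Ms4a18 had no count in any library. Ms4a2, the mast cell gene, had 5 counts in all libraries together.

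Ms4a14, the next gene to Ms4a7 on the same strand (chr19:11301249-11314454), was at 61.2, 41.7 and 61.0 CPM in IM control and at 147, 142 and 211 CPM in IM deleted. All deleted libraries were above all controls, but the log2 difference of 1.61 ± 1.04 did not pass (edgeR, adjusted p = 0.736). Within lanes it was 1.49 in lane 5 (1 deleted library against 2 controls) and 1.52 in lane 7 (2 against 1). Ms4a7 did not follow: there were 0.432 ± 0.0359 Ms4a14 counts per Ms4a7 count in IM control (0.397 to 0.468) and 1.54 ± 0.144 in IM deleted (1.39 to 1.68). This ratio was picked after its values were seen, is given with no test, and the part of the nuclear RNA difference in it was not tested.

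**Figure D5:**
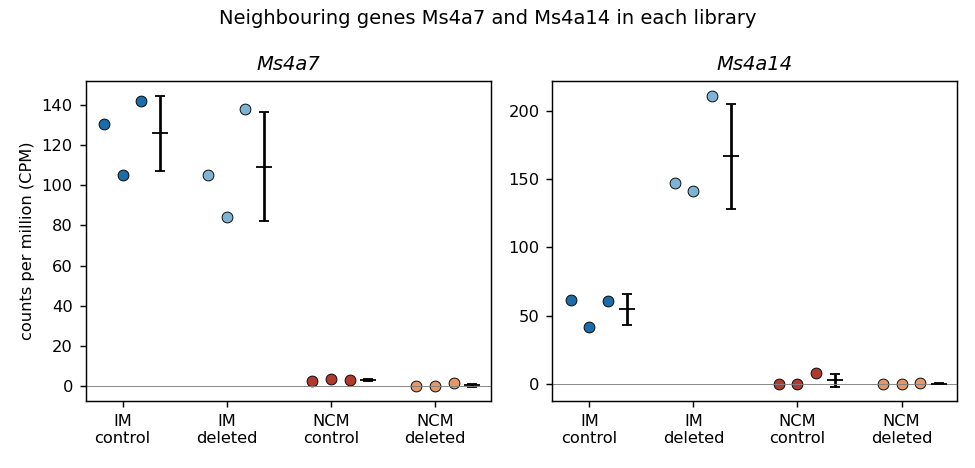
Level of the neighbouring genes Ms4a7 and Ms4a14 in CPM, with 1 point per library and the group mean and SD beside the points. Ms4a14 lies at 142 to 211 CPM in IM deleted and 41.7 to 61.2 CPM in IM control, whereas the Ms4a7 ranges of these groups overlap.

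In NCM, Ms4a14 had no count in 4 of 6 libraries, with 8.25 CPM in NCM659 and 0.888 CPM in NCM661. The log2 difference between cell types was 4.29 ± 1.19 in controls (edgeR, adjusted p = 0.0428) and 8.76 ± 1.52 in deleted animals (edgeR, adjusted p = 0.00323), with 68 and 10 counts in the NCM groups behind these sizes. The control call was lost without the low-count filter, with only the 6 control libraries, and on leaving out any 1 of IM648, IM659, IM660, IM649, IM650, IM661, NCM648, NCM657 or NCM661. It was lost too with the number in the sample title as a block (edgeR, adjusted p = 0.323). The call in deleted animals was lost without the low-count filter.

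Tmem176a and Tmem176b, related tetraspan genes that overlap each other on chromosome 6, were at 114 ± 9.40 and 430 ± 35.1 CPM in IM control and at 11.7 ± 7.44 and 65.9 ± 40.9 CPM in NCM control. Their log2 differences were 3.28 ± 0.54 and 2.71 ± 0.63 (edgeR, adjusted p = 0.00171 and 0.0158). Tmem176b was no longer called without IM648, without IM660 or without the filter. In IM deleted both were lower on average, at 55.1 ± 5.13 and 208 ± 64.9 CPM, without passing (edgeR, adjusted p = 0.517 and 0.651). In NCM deleted Tmem176a was higher on average than in NCM control, at 33.9 ± 15.3 CPM (1.53 ± 0.51, edgeR, adjusted p = 0.148), and Tmem176b lower, at 46.3 ± 37.4 CPM (-0.50 ± 0.59, 0.729). Between the cell types in deleted animals the log2 differences were 0.70 ± 0.50 and 2.16 ± 0.62 (edgeR, adjusted p = 0.575 and 0.0624).

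Receptors and signalling genes tied to the family were taken as a list of 10, of which 9 were tested. In both comparisons of cell types 3 of 9 passed, all higher in IM, beside 2.81% of all genes upwards in controls and 3.22% in deleted animals. Fcgr1 is also on the list of interstitial macrophage markers, so its direction is not separate from that list. The 3 were the lipid receptor gene Trem2, at 68.8 ± 5.64 CPM in IM control and 6.54 ± 4.45 in NCM control, the high-affinity IgG receptor gene Fcgr1 (69.5 ± 2.60 and 6.82 ± 1.26 CPM) and the low-affinity IgG receptor gene Fcgr3 (783 ± 65.0 and 198 ± 19.3 CPM). Without IM648 or IM660 Trem2 was not called in controls, and Fcgr1 was not called without IM648, NCM657 or NCM659. With the number in the sample title as a block neither was called in controls (edgeR, adjusted p = 0.109 for Trem2 and 0.123 for Fcgr1). In deleted animals neither was called with only the 6 libraries compared (edgeR, adjusted p = 0.0556 for Trem2 and 0.0799 for Fcgr1). Clec7a, the gene of the Ms4a4a partner dectin-1, was at 489 ± 20.8 CPM in IM control and 475 ± 57.1 CPM in NCM control (log2 difference 0.04 ± 0.36, edgeR, adjusted p = 0.977). In NCM deleted against NCM control all 9 had log2 differences below 0, with a median of -1.43 beside -0.10 over all genes. This was not particular to the list. The median was -1.225 for the 13 interstitial macrophage markers and -1.058 for the 12 nonclassical monocyte markers, while the 14 endothelial markers rose (1.857). None of the 9 passed in edgeR (0 of 9). At an unadjusted p under 0.05 there were 8, beside 2301 of all 14254 genes. DESeq2 called 6 of the 9, and its count over all genes in this comparison is given in the closing section. NCM661 had the lowest summed level (432 CPM). In IM deleted against IM control 0 of 9 passed in edgeR and 0 in DESeq2. At an unadjusted p under 0.05 there were 4, beside 1403 of all 14254 genes.

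Of 12 tetraspanin genes, which encode another family of tetraspan proteins, 3 were higher in IM control than in NCM control: Cd9, Cd63 and Cd81. Of all genes 2.81% passed upwards there. Cd63, of lysosomes and exosomes, was at 144 ± 18.3 against 17.6 ± 5.69 CPM (log2 difference 3.03 ± 0.36, edgeR, adjusted p = 0.00021). Cd81 was at 237 ± 21.7 against 25.8 ± 15.8 CPM, and Cd9 at 419 ± 42.7 against 164 ± 42.1 CPM, the latter not called without IM648, IM660, NCM657 or NCM659. Cd9 was also not called with the number in the sample title as a block (edgeR, adjusted p = 0.213). Cd63 and Cd81 passed in deleted animals too, beside 3.22% of all genes upwards. Cd81 did not pass with only the 6 libraries compared (edgeR, adjusted p = 0.0683), nor without any 1 of IM659, IM649, IM650, IM661, NCM649 and NCM650. In the comparisons of genotypes 0 of 12 passed in edgeR or DESeq2. At an unadjusted p under 0.05 there were 1 in IM and 2 in NCM, beside 1403 and 2301 of all 14254 genes.

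Outside the cluster, 8 protein-coding genes lie within 100 kb, of which 5 are in the files. Tmem109, Prpf19 and Ccdc86 were tested, and of these only Tmem109 passed in IM control against NCM control, beside 2.81% of all genes upwards. Tmem109 was at 76.7 ± 14.04 and 31.6 ± 7.12 CPM (log2 difference 1.28 ± 0.36, edgeR, adjusted p = 0.0424). It was no longer called without any 1 of IM648, IM659, IM660, IM649, IM650, NCM648, NCM657 or NCM659. The call was lost too with the number in the sample title as a block (edgeR, adjusted p = 0.244). Prpf19 and Ccdc86 did not pass in any comparison, and Zp1 and Oosp1 did not reach the filter.

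How far reads can be assigned to 1 member differs between them. Of the 50-base windows of annotated Ms4a6c transcripts, 51.37% also occur in another gene on either strand, of which BE692007, an antisense transcript that overlaps its exons, holds most (49.63% of the windows). The strand setting of the authors' counting is not given in the sources used here, so reads of this pair may not be told apart, and BE692007 was at 0.369 to 7.58 CPM in IM and 4.28 to 41.2 CPM in NCM libraries. Shared windows were 8.185% for Ms4a4c (with Ms4a4b and Ms4a4d), 3.574% for Ms4a6b, 2.542% for Ms4a6d, 0.3059% for Ms4a7 and 0% for Ms4a4a. The Ms4a6c levels are the ones most open to this limit.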

How the data were processed

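RNA was measured in 12 libraries, 3 in each of 4 groups taken from the sample titles. The deposited files hold raw read counts per gene, neither normalized nor filtered by the authors, with 5 summary rows that were left out and that held 44.97 to 74.06% of the reads. The tools named in the submitters' processing notes are HTSeq 0.6.0, TopHat2 2.1.1 and cutadapt 1.12, with the build GRCm38, and per the labels' protocols the kit was stranded and made for total RNA. The annotation and strand setting were not given in the sources used here. Lanes were read from file names. The IM libraries were in lanes 5 and 7 and the NCM libraries in lanes 6 and 8, which leaves lane and cell type inseparable.

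Genes were kept by filterByExpr (minimum count 10), scaled by TMM factors and fitted with edgeR 4.0.16 in R 4.3.3, as 1 robust quasi-likelihood fit of all 12 libraries with 4 group means. A gene passed at a Benjamini-Hochberg adjusted p under 0.05 over all 14254 genes. CPM uses TMM-scaled library sizes, and log2 CPM a prior count of 2. Exon lengths came from GENCODE M21, and promoters from RefSeq (GRCm38.p6), matched by symbol for 5 of the 6 members. Alternatives were RLE scaling, no filter, DESeq2 1.42.0, only the 6 libraries compared, lane as a covariate within each cell type, the number in the sample title as a block (edgeR, or limma 3.58.1; the labels do not say whether it marks an animal) and leaving out each library. The fit was run on simulated counts for the comparison NCM deleted against NCM control only. These counts were drawn from the mean levels and the spread estimated here. They held no difference of lane, RNA make-up or other cells, so the run cannot speak for these. Depth limits low values, and limits from a count of 0 cover counting error only, since reads carry no molecular identifiers here.

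The members and gene lists were chosen with earlier results of these data known. All members are named, as are the other family genes that passed the filter, the 3 genes most correlated with each member (leaving out systematic names, pseudogenes and small or ribosomal RNAs), and the neighbours within 100 kb. Genes of the receptor and tetraspanin lists were named where they passed, and Clec7a for its tie to Ms4a4a, after the values were seen.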

Additional observations from a re-analysis of the deposited data

How the results depend on the processing

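Ms4a7 passed in both comparisons of cell types under all 18 alternatives of each. Lanes are nested in cell type, so the fit with lane tests nothing about a difference between cell types, and its values for these are printed only for completeness. The number of members past the threshold in IM control against NCM control, 2 at first, was 3 with DESeq2, 5 with only the 6 libraries compared, 1 with the replicate block and 1 to 3 when single libraries were left out. In IM deleted against NCM deleted it was 2 to 3 when single libraries were left out. For the genotypes in IM it was 1 with 6 libraries (Ms4a6c) and 0 whichever library was left out. For the genotypes in NCM it was 2 with DESeq2, 0 with 6 libraries, 0 with lane as a covariate, 0 with the replicate block and 0 to 2 when single libraries were left out. In the interaction it was 0 to 1 when single libraries were left out. The causes of these shifts were not tested.

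The number of all genes past the threshold moved as follows. In IM control against NCM control it was 1066, with 1901 by DESeq2, 2015 with 6 libraries, 468 with lane, 289 with the replicate block and 504 to 1525 with single libraries left out. In IM deleted against NCM deleted it was 652, with 1308 by DESeq2, 228 with 6 libraries, 60 with lane, 397 with the replicate block and 346 to 1709 with single libraries left out. Between genotypes it was 41 in IM, with 77 without a filter, 429 by DESeq2, 950 with 6 libraries, 0 with lane, 181 with the replicate block and 0 to 234 with single libraries left out. It was 60 in NCM, with 153 without a filter, 1080 by DESeq2, 0 with 6 libraries, 3 with lane, 196 with the replicate block and 4 to 570 with single libraries left out. In the interaction it was 0, with 112 by DESeq2 and 0 to 34 with single libraries left out.

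None of the member values that changed sign had passed. In IM deleted against NCM deleted Ms4a6b ran from -0.096 (without NCM661) to 1.09. Within IM, the genotype difference of Ms4a4c ran from -0.13 (without IM661; -0.070 without IM659) to 0.986. Within NCM, that of Ms4a6b was -0.46 with the replicate block and ran from -0.48 (without NCM649) to 0.717 with single libraries left out, and that of Ms4a4a from -0.870 to 0.050 (without NCM661). In the interaction Ms4a6c was 0.012 with the replicate block and ran from -0.499 (without NCM661) to 0.20 (without NCM649; 0.031 without IM650 and 0.028 without NCM650), and Ms4a4a from -0.11 (without NCM661) to 0.773. Ms4a4a passed in IM deleted against NCM deleted with the replicate block (adjusted p = 0.0482). Of 534 values of members under alternatives, 499 kept their direction and side of the threshold, 12 gained and 12 lost the call.

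RLE scaling moved the median of all genes from -0.10 to 0.04 in NCM deleted against NCM control and from 0.19 to 0.04 in the interaction. None of the 24 group levels of members moved by more than 1 SD under it. The labels do not give the meaning of the numbers in the sample titles. Deviations of libraries with the same number correlated between -0.07 and 0.08. Such correlations between different cell types cannot show whether the libraries were paired, so the replicate block is given as 1 of the alternatives. Depth limits Ms4a7 and Ms4a6d in NCM deleted, where single libraries held 0 to 23 counts.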
